A study of Mus musculus with 23 samples.

Results

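The heat shock chaperones described here are 10 genes of 13572 in the count table: Hspa8, Hspa1a, Hspa1b, Hsph1, Dnaja1, Dnajb1, Hsp90aa1, Hsp90ab1, Hspd1 and Hspe1. They were chosen by name, and all 10 had a row with counts. They were measured in type 1 conventional dendritic cells (cDC1), dendritic cells that are known for cross-presenting tumour antigen, which were sorted from subcutaneous melanomas on day 6 after injection. One group of 4 mice carried BRAFV600E melanoma cells with a knockout of both cyclooxygenase genes (Ptgs1/Ptgs2 KO). The other 4 mice carried the BRAFV600E line with both genes intact (Control). Prostaglandin E2 (PGE2) is made through these enzymes. All hosts were wild-type C57BL/6 mice, so host cells in both kinds of tumour kept Ptgs1 and Ptgs2, and no PGE2 level is part of these data. Whether either line is a single clone is not given in the labels. Smart-seq3, which reads whole transcripts from few cells, was run on pools of 10 cells each, gated as live, CD45+ and MHC-II+, then as CD11c+ CD103+ and CD11b-. There were 11 pools from Ptgs1/Ptgs2 KO tumours and 12 from Control tumours, up to 3 per mouse, and the mouse was the replicate. Ptgs1/Ptgs2 KO mouse 2 had only pools 2 and 3 and the fewest counts of all mice, 101017.

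Heat shock proteins help other proteins to fold. In the cytosol J-domain proteins deliver unfolded clients to HSP70, which binds and releases them as it splits ATP. HSP110 proteins exchange its nucleotide, and HSP90 takes over clients such as kinases and receptors for their last folding steps. Inside mitochondria the HSP60 barrel and its HSP10 lid do comparable work. Heat shock factor 1 switches on many of these genes after heat or other protein damage, whereas some members are made at a high level in all cells. In dendritic cells, cytosolic chaperones are also known to handle antigen on its way to presentation.

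Pools held between 34088 and 98554 counts in the Ptgs1/Ptgs2 KO group and between 25571 and 57523 in the Control group. Markers of cDC1 were present in every pool, with 152 to 311 counts over 10 genes in Ptgs1/Ptgs2 KO pools and 55 to 160 in Control pools. Summed counts of markers of other cells differed between the groups. Over all pools of a group, 6 pDC markers held 4 counts in the Ptgs1/Ptgs2 KO group against 109 in the Control group, 6 macrophage markers held 8 against 123, 5 cDC2 markers held 40 against 150 and 6 T cell markers held 56 against 11. Siglech, Ly6d, Klk1 and Cox6a2 of the pDC markers and C1qb of the macrophage markers were at 0 in the Ptgs1/Ptgs2 KO group. The median pool of each group held 0 macrophage and 0 T cell marker counts. The highest values were 71 macrophage counts in a Control pool and 29 T cell counts in a Ptgs1/Ptgs2 KO pool. Of the pools, 3 in the Ptgs1/Ptgs2 KO group and 6 in the Control group held 10 or more counts of the pDC, macrophage and T cell markers together. The cDC2 markers were spread wider, with 0 to 16 counts in Ptgs1/Ptgs2 KO pools and 3 to 32 in Control pools. In the pools without those 9 they still ran from 0 to 5 counts in the Ptgs1/Ptgs2 KO group and from 3 to 15 in the Control group. No value stands for a count of cells, and a lower level in a pool can come from fewer cells that express a gene or from less RNA per cell, which cannot be told apart.

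The 10 genes together held a larger share of the counts in cDC1 from Ptgs1/Ptgs2 KO tumours. Their share was 0.525%, 0.416%, 0.535% and 0.656% of all counts in mice 1 to 4 of the Ptgs1/Ptgs2 KO group, against 0.372%, 0.339%, 0.335% and 0.351% in mice 1 to 4 of the Control group. The mean was 0.533% ± 0.0981 against 0.349% ± 0.0165 (SD, n = 4 mice each), and the groups did not overlap. Without Hspa8, the most abundant member, the share was 0.294% ± 0.0501 in the Ptgs1/Ptgs2 KO group and 0.203% ± 0.00951 in the Control group. By pool, 10 of 11 Ptgs1/Ptgs2 KO pools lay above the highest Control pool. The pool outside this pattern was the Ptgs1/Ptgs2 KO pool with 0.360%, which 3 Control pools exceeded. No test was made of these sums, because the members were chosen by name with earlier results known.

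Of the 10 genes, 8 had enough counts to be tested and 2, Hsph1 and Dnajb1, did not. Among the 8 tested, Hspa8 and Hsp90aa1 were called higher, with the quasi-likelihood test of edgeR and an adjusted p under 0.05 over all 2076 tested genes. Of all tested genes 2.7% were called higher and 4.96% in either direction. The mice of the groups did not overlap for 3 members, all higher in the Ptgs1/Ptgs2 KO group, beside 4.91% of all tested genes. All 8 had a positive log2 fold change, beside 50.7% of all tested genes. No member was called lower, where 2.26% of all tested genes were. At an unadjusted p under 0.05 (edgeR), 4 of the 8 were higher, beside 9.63% of all tested genes, and 0 were lower, beside 9.1%. DESeq2 and limma-voom each called 2 of them higher and 0 lower. Of all 2076 tested genes, DESeq2 called 50 higher and 37 lower, and limma-voom called 62 higher and 79 lower. The share of all genes called in each direction depended on the scaling: 56 genes were higher and 47 lower with TMM factors, against 45 and 67 with upper quartile factors. The median log2 fold change was 0.58 over the 8 tested members and 0.0079 over all tested genes. Filtering bears on this median, since Hspa1a reached the count minimum in all 4 Ptgs1/Ptgs2 KO mice but in 1 Control mouse. Hspa1b reached it in 3 Ptgs1/Ptgs2 KO mice and 2 Control mice. It bears on the counts of members as well. Hspa1a is among the 3 without overlap, the 8 with a positive value and the 4 at the unadjusted threshold. Hspa1b is also among the 8 and the 4.

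**Figure D1:**
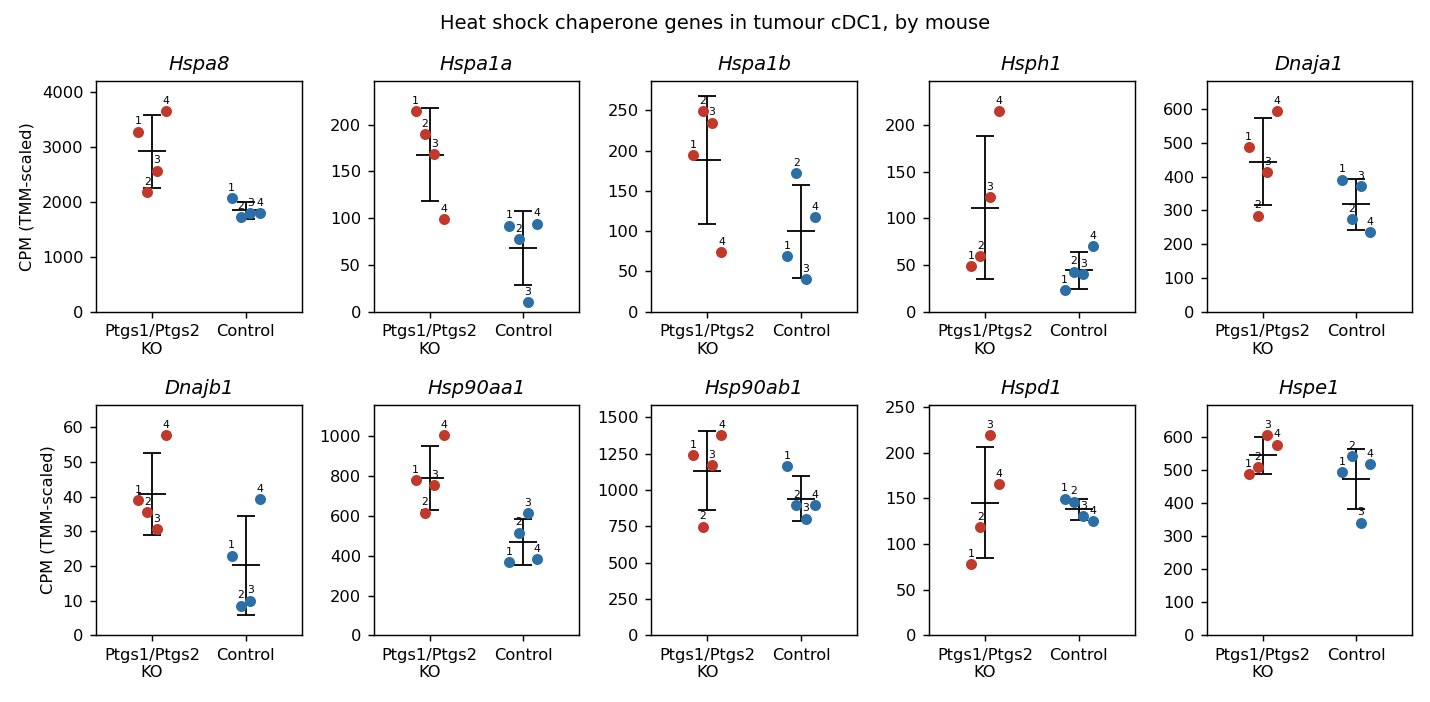
TMM-scaled CPM (counts relative to library size) of the 10 chaperone genes in each mouse, with the Ptgs1/Ptgs2 KO group in red and the Control group in blue. Small digits are mouse numbers and black bars give the mean ± SD of 4 mice. The groups do not overlap for Hspa8, Hspa1a and Hsp90aa1, whereas they overlap for the other 7 genes.

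Hspa8 encodes the constitutive HSP70 of the cytosol (HSC70), which folds new proteins and strips clathrin from vesicles. It was the most abundant member in both groups and ranked 61st of 2076 tested genes by CPM. The gene (ENSMUSG00000015656) spans 40800984 to 40810087 on chromosome 9 (GRCm38, plus strand). Counts were scaled to library size with TMM factors (CPM). Hspa8 had 3275, 2171, 2567 and 3649 CPM in mice 1 to 4 of the Ptgs1/Ptgs2 KO group, against 2071, 1729, 1797 and 1788 CPM in the Control mice. Every Ptgs1/Ptgs2 KO mouse lay above every Control mouse, and the Control mice lay close together. Hspa8 rose 1.58-fold, with 2915 ± 669 against 1846 ± 153 CPM (SD, n = 4 each) and a log2 fold change of 0.66 ± 0.16 (SE; edgeR adjusted p = 0.0196). By pool, with CPM scaled over the pools, it ran from 2110 to 3808 with a median of 2825 in Ptgs1/Ptgs2 KO tumours and from 1284 to 2624 with a median of 1765 in Control tumours. Of 11 Ptgs1/Ptgs2 KO pools 8 lay above the highest Control pool, and 2 of 12 Control pools lay above the lowest Ptgs1/Ptgs2 KO pool.

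The size of the Hspa8 difference varied little, but its call depended on single mice. The log2 fold change ran from 0.52 to 0.78 when 1 mouse was left out. The call was lost without Control mouse 2 or 3 (edgeR adjusted p = 0.0712 and 0.0609) and without Ptgs1/Ptgs2 KO mouse 1 or 4 (edgeR adjusted p = 0.055 and 0.087). Without the 9 pools with 10 or more counts of pDC, macrophage and T cell markers the log2 fold change was 0.70 (edgeR adjusted p = 0.0899 over 1131 genes). In the pools that remained, Hspa8 ran from 2241 to 3782 CPM in 8 Ptgs1/Ptgs2 KO pools and from 1462 to 2624 CPM in 6 Control pools. The estimate was thus no smaller without those pools, but the call was lost. The pools that remained still held 12 cDC2 marker counts in the Ptgs1/Ptgs2 KO group and 46 in the Control group. The part of other cells in the Hspa8 difference was not tested.

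Hspa1a and Hspa1b encode the stress-inducible HSP70 and are neighbours on the minus strand of chromosome 17 in GRCm38. Hspa1b (ENSMUSG00000090877) spans 34956436 to 34959238 and Hspa1a (ENSMUSG00000091971) spans 34969190 to 34972156, with 9951 bases between them. Their coding sequences differ at 11 of 1926 aligned positions, and the longest identical stretch is 638 bases, so reads from one can be assigned to the other or be dropped. How the authors counted such reads is not given in the sources used here, and the values of the pair are uncertain for that reason. Hspa8 is a more distant relative, with 74.1% identity to Hspa1a and at most 22 identical bases in a row. A predicted gene, Gm20481, shares 564 exonic bases with Hspa1a on the opposite strand.

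The bases before the start site are shown for Hspa1a and Hspa1b, because these stretches are nearly alike. They come from RefSeq windows in GRCm38.p6 at chr17:34972157-34972406 for Hspa1a and chr17:34959239-34959488 for Hspa1b, both on the minus strand, and cover the 250 bases before the start site.
Hspa1a: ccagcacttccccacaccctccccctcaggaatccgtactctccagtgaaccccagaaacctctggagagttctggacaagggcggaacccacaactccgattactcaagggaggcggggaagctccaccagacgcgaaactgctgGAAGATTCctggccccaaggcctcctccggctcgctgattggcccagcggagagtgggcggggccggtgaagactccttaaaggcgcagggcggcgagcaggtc
Hspa1b: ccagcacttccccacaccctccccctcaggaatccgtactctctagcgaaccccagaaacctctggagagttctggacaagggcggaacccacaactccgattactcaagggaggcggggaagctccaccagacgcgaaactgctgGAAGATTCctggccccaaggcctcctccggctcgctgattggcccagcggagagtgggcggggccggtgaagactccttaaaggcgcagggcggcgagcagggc
Capitals mark a pair of inverted heat shock units, the 5-base modules that heat shock factors bind. The stretches differ at 3 of 250 positions, and the pair of units begins 104 bases before the start site in both.

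Heat shock units were searched in the 300-base windows (250 bases before to 50 after the start) of the 7 members that the RefSeq table holds, which are all but Hspa8, Hsp90aa1 and Hsp90ab1. The motifs were GAANNTTC and TTCNNGAA for 2 units, extended by NNGAA after the first or NNTTC after the second for 3 units, each of which reads the same or as its partner on the other strand, and overlaps were allowed. At least 1 pair of units was found for 6 of the 7 genes (Dnaja1, Hspa1a, Hspa1b, Hspd1, Hspe1 and Hsph1), where 17.0% of 27025 genes in the table had one. A run of 3 units was found for Hspd1, Hspe1 and Hsph1, where 0.662% of all genes had one. Hspd1 and Hspe1 are read from opposite strands and share the same run, which is 4 units long. The sites are shown as 30 bases each, with the units in capitals, at chr1:55088053-55088082 on the plus strand and chr5:149636287-149636316 on the minus strand (GRCm38.p6, from RefSeq windows).
Hspe1 and Hspd1: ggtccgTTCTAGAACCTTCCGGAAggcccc
Hsph1: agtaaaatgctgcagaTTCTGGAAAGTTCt
The first run begins 89 bases before the start of Hspe1. Hspd1 has 2 listed starts, and the run begins 144 bases before the one that lies inside the gene. The window of the other Hspd1 start, at the end of the gene span, held no pair of units. The run of Hsph1 begins 36 bases after 1 of its 2 listed starts. A match of letters does not show that a factor binds there.

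Inducible HSP70 RNA was scarce and uneven between pools. Hspa1a had 214, 190, 168 and 99.1 CPM in mice 1 to 4 of the Ptgs1/Ptgs2 KO group, against 92.0, 77.4, 10.0 and 94.1 CPM in the Control mice. The groups did not overlap, but Ptgs1/Ptgs2 KO mouse 4 lay just above Control mouse 4, and Control mouse 3 rested on 1 count. The mean was 168 ± 49.6 CPM in the Ptgs1/Ptgs2 KO group and 68.4 ± 39.6 CPM in the Control group (SD, n = 4 each). With a log2 fold change of 1.25 ± 0.43 Hspa1a was not called (edgeR adjusted p = 0.102), and it was not called in any of the 16 alternative fits that tested it. Hspa1b had 195, 249, 235 and 74.3 CPM in mice 1 to 4 of the Ptgs1/Ptgs2 KO group, against 69.0, 172, 40.1 and 118 CPM in the Control mice. Here the groups overlapped, with Ptgs1/Ptgs2 KO mouse 4 lower than 2 of the Control mice. Hspa1b was not called (log2 fold change 0.87 ± 0.41, edgeR adjusted p = 0.263). Its direction turned to −0.080 (edgeR adjusted p = 0.968) without the 9 pools with 10 or more counts of pDC, macrophage and T cell markers, whereas the log2 fold change was 1.25 without Control mouse 2, 1.38 with limma-voom over pools and 1.56 from technical replicates 2 and 3 alone.

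**Figure D2:**
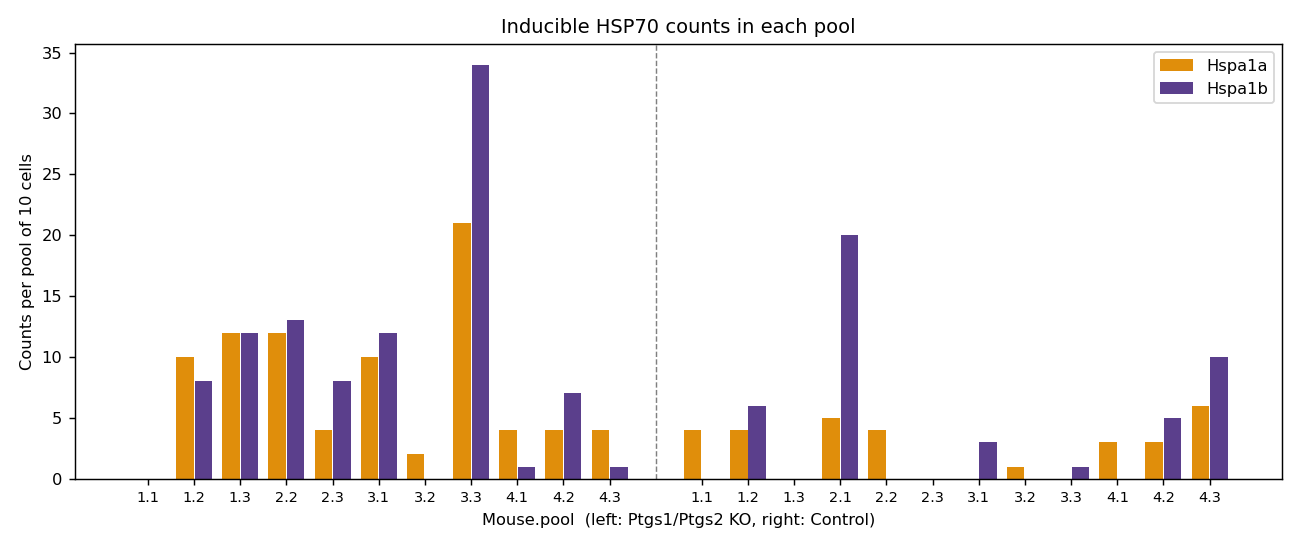
Counts of Hspa1a (orange) and Hspa1b (purple) in each pool of 10 cells, labelled by mouse and pool number, with Ptgs1/Ptgs2 KO pools left of the dashed line and Control pools right of it. The tallest bars stand in Ptgs1/Ptgs2 KO mouse 3 pool 3, with 21 and 34 counts, and 1 Ptgs1/Ptgs2 KO pool and 2 Control pools held none of either.

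Both inducible genes were found together in 9 of 11 Ptgs1/Ptgs2 KO pools and in 4 of 12 Control pools. The summed counts of the pair reached 10 or more in 7 Ptgs1/Ptgs2 KO pools and in 3 Control pools. The median sum was 12 counts in Ptgs1/Ptgs2 KO pools and 3.5 in Control pools, with highest values of 55 and 25. These are raw counts, and the median depth was 51511 counts in Ptgs1/Ptgs2 KO pools and 46257.5 in Control pools. The share of all genes found in more Ptgs1/Ptgs2 KO pools was not computed. A single Control pool, mouse 2 pool 1, held 20 of the 45 Hspa1b counts of its group. Ptgs1/Ptgs2 KO mouse 3 pool 3 held 34 of the 96 in its group, was the deepest library and held 13 T cell marker counts. Mouse 2 pool 2 and mouse 4 pool 2 of that group, with 14 and 29 T cell counts, held 13 and 7 Hspa1b counts. Mouse 1 pool 3 and mouse 3 pool 1 of the same group held 12 Hspa1b counts each and 0 T cell counts. Relative to 100 Hspa8 counts, the pair had 12.5, 20.2, 15.7 and 4.75 counts in mice 1 to 4 of the Ptgs1/Ptgs2 KO group, against 7.78, 14.4, 2.79 and 11.8 in the Control mice. This ratio overlapped between the groups, and Ptgs1/Ptgs2 KO mouse 4, which had the most Hspa8, had the lowest ratio of its group.

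Hsph1 encodes HSP110, which exchanges the nucleotide of HSP70, and was too scarce for the main test. The gene (ENSMUSG00000029657) spans 149614287 to 149636376 on chromosome 5 (minus strand). It held 5, 5, 24 and 26 counts in mice 1 to 4 of the Ptgs1/Ptgs2 KO group, or 48.7, 59.3, 122 and 215 CPM, against 2, 5, 4 and 9 counts, or 23.01, 43.0, 40.1 and 70.6 CPM, in the Control mice. Mice 3 and 4 of the Ptgs1/Ptgs2 KO group were high, and the other 2 lay within the range of the Control mice. In pools, 4 Ptgs1/Ptgs2 KO libraries with 13, 12, 12 and 10 counts held most of the 60 in that group, while no Control pool had more than 4. With a minimum count of 5 in place of 10 the log2 fold change was 1.27 ± 0.48 and not called (edgeR adjusted p = 0.168). With no count filter it was 1.30 (edgeR adjusted p = 0.182).

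The J-domain partners Dnaja1 and Dnajb1, both of which bring clients to HSP70, were not called. Dnaja1 (ENSMUSG00000028410, chromosome 4, plus strand, 40722150 to 40737149) had 487, 285, 413 and 594 CPM in mice 1 to 4 of the Ptgs1/Ptgs2 KO group, against 391, 275, 371 and 235 CPM in the Control mice. Ptgs1/Ptgs2 KO mouse 2 lay among the Control mice and the other 3 lay above them. The log2 fold change was 0.51 ± 0.25 (edgeR adjusted p = 0.295). Dnajb1, the partner most strongly induced by heat (ENSMUSG00000005483, chromosome 8, plus strand, 83608193 to 83612653), held 20 counts in the Ptgs1/Ptgs2 KO group and 9 in the Control group. No pool had more than 5, and 2 Ptgs1/Ptgs2 KO pools and 5 Control pools had none. It averaged 40.7 ± 11.9 CPM in the Ptgs1/Ptgs2 KO group and 20.2 ± 14.2 CPM in the Control group (SD, n = 4 each), with overlapping mice, and passed the test in no fit that held it. With no count filter its log2 fold change was 0.91 ± 0.73 (edgeR adjusted p = 0.726).

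Of the cytosolic HSP90 genes, the stress-inducible Hsp90aa1 rose and the constitutive Hsp90ab1 was not called. Hsp90aa1 (ENSMUSG00000021270, chromosome 12, minus strand, 110690605 to 110702728) had 780, 617, 755 and 1007 CPM in mice 1 to 4 of the Ptgs1/Ptgs2 KO group, against 368, 516, 612 and 384 CPM in the Control mice. The groups did not overlap, although Ptgs1/Ptgs2 KO mouse 2 and Control mouse 3 nearly met. The increase was 1.68-fold, with 790 ± 162 against 470 ± 116 CPM (SD, n = 4 each) and a log2 fold change of 0.75 ± 0.21 (SE; edgeR adjusted p = 0.0466). Across pools it ran from 438 to 1175 CPM in Ptgs1/Ptgs2 KO tumours and from 281 to 879 CPM in Control tumours, so that 3 of 11 Ptgs1/Ptgs2 KO pools lay above every Control pool.

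Hsp90ab1 (ENSMUSG00000023944, chromosome 17, minus strand, 45567775 to 45573271) had 1238, 747, 1169 and 1379 CPM in mice 1 to 4 of the Ptgs1/Ptgs2 KO group, against 1162, 895, 803 and 894 CPM in the Control mice. Ptgs1/Ptgs2 KO mouse 2 was the lowest of all 8 mice and the ranges overlapped. Its log2 fold change was 0.28 ± 0.19 (edgeR adjusted p = 0.463). Between the 2 genes 75.7% of the coding positions are identical, with at most 33 identical bases in a row. The count of Hsp90aa1 per Hsp90ab1 count was 0.630, 0.825, 0.646 and 0.731 in mice 1 to 4 of the Ptgs1/Ptgs2 KO group, against 0.317, 0.577, 0.763 and 0.430 in the Control mice. Control mouse 3 lay within the Ptgs1/Ptgs2 KO range and the other 3 Control mice below it. Whether the 2 genes differ in their response was not tested.

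The call of Hsp90aa1 held in 6 of 18 alternative fits, with log2 fold changes from 0.60 to 0.89. With the mouse number as a replicate block it was 0.75 and not called (edgeR adjusted p = 0.0746). Without the 9 pools with 10 or more counts of pDC, macrophage and T cell markers it was 0.65 and not called (edgeR adjusted p = 0.249). Of the 8 fits without a mouse, it kept its call without Control mouse 3 and without Ptgs1/Ptgs2 KO mouse 2.

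Hspd1 and Hspe1 encode HSP60 and HSP10, the barrel and lid of the mitochondrial chaperonin, and had the smallest log2 fold changes of the 8 tested members. They lie head to head on chromosome 1 and overlap by 112 bases, Hspd1 (ENSMUSG00000025980) on the minus strand from 55077835 to 55088243 and Hspe1 (ENSMUSG00000073676) on the plus strand from 55088132 to 55091307. Reads from the overlap cannot be told apart without strand. Hspd1 had 78.0, 119, 219 and 165 CPM in mice 1 to 4 of the Ptgs1/Ptgs2 KO group, against 150, 146, 130 and 125 CPM in the Control mice. The Ptgs1/Ptgs2 KO mice lay on both sides of the Control mice, and the log2 fold change was 0.14 ± 0.33 (edgeR adjusted p = 0.877). Hspe1 had 487, 510, 607 and 578 CPM in mice 1 to 4 of the Ptgs1/Ptgs2 KO group, against 495, 542, 341 and 517 CPM in the Control mice, again with overlap. Its log2 fold change was 0.21 ± 0.20 (edgeR adjusted p = 0.636).

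**Figure D3:**
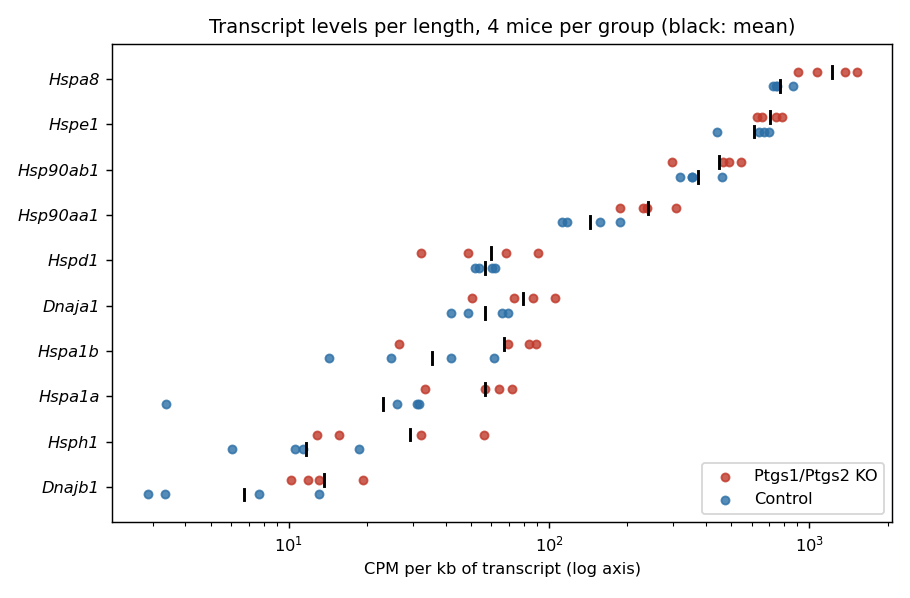
Level of each chaperone gene per kb of transcript (CPM per kb, log axis) in 4 Ptgs1/Ptgs2 KO mice (red, upper row of each gene) and 4 Control mice (blue, lower row), with black ticks at the means. Genes are ordered by the Control mean, from 771 CPM per kb for Hspa8 to 6.75 for Dnajb1.

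Per length, the constitutive genes Hspa8 and Hsp90ab1 and the mitochondrial Hspe1 led in both groups, and the genes of inducible HSP70, HSP110 and Dnajb1 were low. Levels were divided by the longest principal protein-coding transcript in GENCODE, which runs from 774 bases for Hspe1 to 5622 for Dnaja1. Hspa8 had 1218 ± 279 CPM per kb in the Ptgs1/Ptgs2 KO group and 771 ± 63.7 in the Control group, followed by Hspe1 with 705 ± 72.7 and 612 ± 117 (SD, n = 4 mice each). Hsp90ab1 came next with 450 ± 108 and 372 ± 61.5, and then Hsp90aa1 with 241 ± 49.3 and 143 ± 35.2. Hspd1 had 60.0 ± 25.1 in the Ptgs1/Ptgs2 KO group and 56.9 ± 4.86 in the Control group, Dnaja1 79.1 ± 23.1 and 56.6 ± 13.3, and Hspa1b 67.2 ± 28.3 and 35.6 ± 20.6. Hspa1a had 56.6 ± 16.7 and 23.1 ± 13.3, and among these 4 the mice overlapped in the Ptgs1/Ptgs2 KO group, while in the Control group every mouse had less Hspa1a than Hspd1 or Dnaja1. Hsph1 with 29.3 ± 20.04 and 11.6 ± 5.18 and Dnajb1 with 13.6 ± 3.96 and 6.75 ± 4.75 came last. The HSP60 gene Hspd1 thus had far less RNA per length than the HSP10 gene Hspe1, in every one of the 8 mice. How reads fall along transcripts in these libraries is not known, which limits this order.

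Within the groups the 8 tested members did not all vary together. Correlations were computed for the 8 tested members over the 23 pools, after subtracting each group's mean, as a description. The pools share mice, and low counts weaken any correlation. Of 28 pairs 14 were positive, and Pearson's r ran from −0.38 to 0.63. The pairs among Hspa8, Hsp90aa1, Hsp90ab1 and Dnaja1 were all positive, with r from 0.14 to 0.63. Every negative pair held Hspa1a, Hspa1b, Hspd1 or Hspe1, and Hspa1a, Hspa1b and Hspd1 had the fewest counts of the 8 members. The highest values were 0.63 for Hspa8 with Hsp90ab1 and 0.62 for Hspa1a with Hspa1b, the near-identical pair, followed by 0.45 for Hspa8 with Dnaja1. Among the genes outside the list whose level followed the members' mean most closely over the pools were Ttc7 (r = 0.64), Lamtor5 (0.63), Olfm1 (0.63), Gm23935 (0.59) and Flot1 (0.58).

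No gene of the wider chaperone network was called. Of 95 other chaperone and co-chaperone genes listed, 86 were in the table and 36 could be tested. The count was 0 with edgeR, DESeq2 and limma-voom. Of all tested genes 4.96% were called by edgeR. At an unadjusted p under 0.05 (edgeR) 3 of the 36 were higher and 2 lower, beside 9.63% and 9.1% of all tested genes. Of the 36, 25 had a positive log2 fold change, beside 50.7% of all tested genes, with a median of 0.23. Whether this differs from the median of 0.58 over the tested members was not tested, and members and lists were chosen with earlier results known.

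Among partners of cytosolic HSP70, Hspa4, another HSP110 protein, had a log2 fold change of 0.37 ± 0.33 (edgeR adjusted p = 0.608). Bag1, an HSP70 exchange factor, had 0.79 ± 0.41 (edgeR adjusted p = 0.325). Dnajb6, a J-domain protein that keeps aggregating proteins soluble, averaged 119 CPM in the Ptgs1/Ptgs2 KO group and 192 CPM in the Control group (−0.67 ± 0.32, edgeR adjusted p = 0.265). Of 7 other J-domain proteins tested 4 were positive. Among 4 HSP90 co-chaperones tested, Chordc1 had the smallest p, with 0.69 ± 0.42 (edgeR adjusted p = 0.412). Hsbp1, which binds heat shock factor 1, had 0.18 ± 0.33 (edgeR adjusted p = 0.831), and the other heat shock factor genes in the table, like the small heat shock proteins, held too few counts to test.

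TRiC, the barrel that folds actin and tubulin, and prefoldin, its helper, had 11 tested genes with a median log2 fold change of 0.30 and 6 positive values. Cct3, a TRiC subunit, had 259 ± 66.0 CPM in the Ptgs1/Ptgs2 KO group and 146 ± 24.8 CPM in the Control group without overlap between mice, and was not called (0.83 ± 0.28, edgeR adjusted p = 0.0921). Chaperones of the endoplasmic reticulum had 8 of 9 positive values and a median of 0.25. Manf, a secreted protein of the unfolded protein response, had the smallest p there (0.98 ± 0.37, edgeR adjusted p = 0.147). The major HSP70 and HSP90 of that compartment, Hspa5 and Hsp90b1, had 0.29 and 0.28 (edgeR adjusted p = 0.564 and 0.532). Grpel1, the exchange factor of mitochondrial HSP70, was the single tested gene of the other mitochondrial chaperones and averaged 62.9 CPM in the Ptgs1/Ptgs2 KO group and 109 CPM in the Control group (−0.83 ± 0.38, edgeR adjusted p = 0.246).

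**Figure D4:**
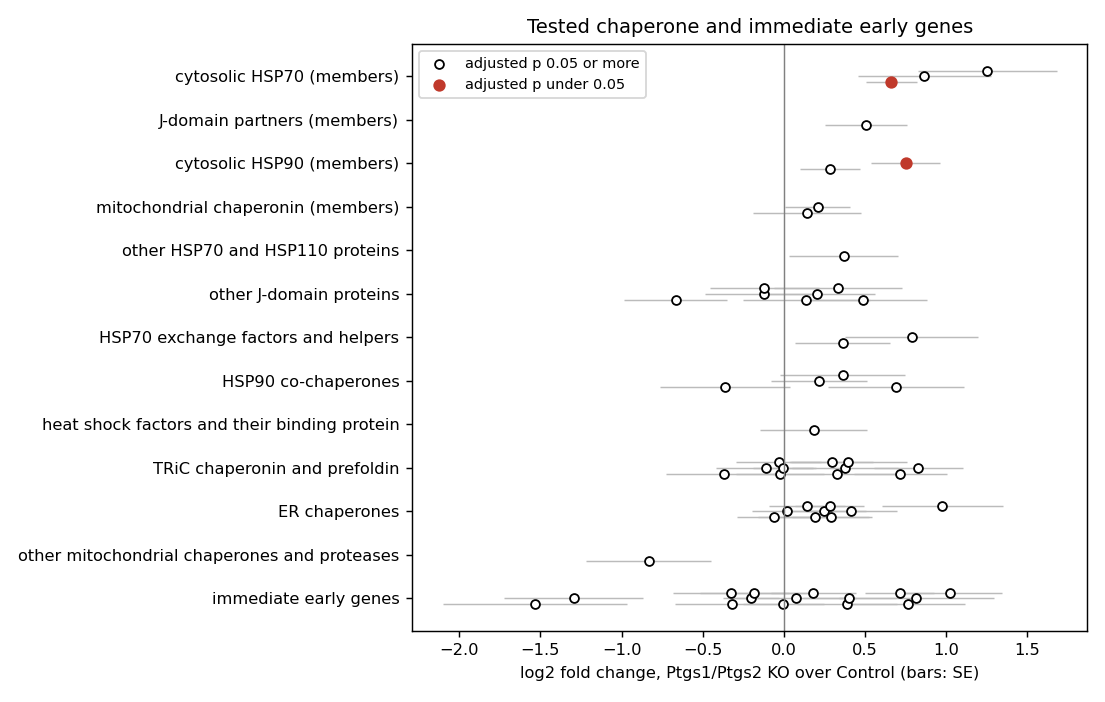
Log2 fold change (Ptgs1/Ptgs2 KO over Control, with SE) of each tested chaperone and immediate early gene, 1 row per list, with filled red points for genes called at an adjusted p under 0.05. The 2 called genes are Hspa8 at 0.66 and Hsp90aa1 at 0.75, and values on both sides of 0 are seen for J-domain proteins, HSP90 co-chaperones, TRiC and prefoldin, ER chaperones and immediate early genes.

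Immediate early genes, which like heat shock genes respond to tissue digestion and sorting, were examined beside the members. They held 0.523% ± 0.0915 of the counts in the Ptgs1/Ptgs2 KO group and 0.421% ± 0.0692 in the Control group (SD, n = 4 mice each), with overlapping mice. Of 15 tested genes none was called by edgeR, DESeq2 or limma-voom, beside 4.96% of all tested genes called by edgeR. At an unadjusted p under 0.05 (edgeR) 3 of the 15 were higher and 2 lower, beside 9.63% and 9.1% of all tested genes. Fos, a subunit of the AP-1 factor, had 1169 CPM in the Ptgs1/Ptgs2 KO group and 705 CPM in the Control group without overlap between mice (0.71 ± 0.21, edgeR adjusted p = 0.0568). Jun, its partner, had 69.2 CPM in the Ptgs1/Ptgs2 KO group and 162 CPM in the Control group (−1.30 ± 0.43, edgeR adjusted p = 0.0892). Also at that unadjusted threshold, Dusp1 (1.02 ± 0.32, edgeR adjusted p = 0.0698) and Nr4a1 (0.77 ± 0.35, edgeR adjusted p = 0.242) were higher. Ier3 was lower (−1.54 ± 0.57, edgeR adjusted p = 0.126). Jun, Dusp1, Nr4a1 and Ier3 were named after their values were seen. The mitochondrial share of counts was 4.10% ± 0.560 in the Ptgs1/Ptgs2 KO group and 5.32% ± 0.892 in the Control group. The part of digestion, depth, RNA quality or cells of other types in the chaperone values was not tested.

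**Figure D5:**
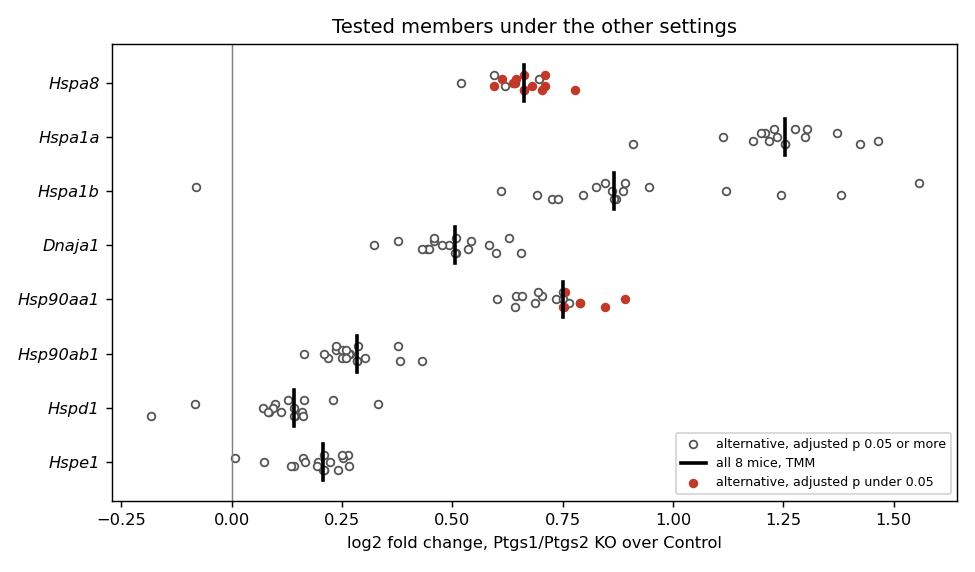
Log2 fold change (Ptgs1/Ptgs2 KO over Control) of the 8 tested chaperone genes under each alternative setting, with red points where the adjusted p was under 0.05 and black ticks for the value from all 8 mice. Hspa8 stays between 0.52 and 0.78 and Hsp90aa1 between 0.60 and 0.89, whereas Hspa1b and Hspd1 have values on both sides of 0.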

How the data were processed

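RNA of sorted CD103+ cDC1 was measured in 23 libraries of 10 cells. Tumours were digested with collagenase and DNase before the sort, per the labels. The authors deposited raw counts for each gene and library. Alignment used STAR 2.5.4b on GRCm38, per the submitters' processing notes. Not given in the sources used here: the counting program, its use of strand and molecular identifiers, and the handling of reads with several matches. Of the gene symbols, 16 changed to dates by a spreadsheet were restored through their identifiers.

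Libraries of a mouse, called technical replicates in the labels, were summed, giving 101017 to 230478 counts per mouse. Whether pools of 1 mouse were sorted separately is not stated, and p-values measure the spread between mice. No 2 libraries were duplicates (chi-squared per degree of freedom of 2.17 or more). Genes passing filterByExpr (minimum count 10; 2076 genes with 80.6% of the counts) were tested with the two-sided quasi-likelihood test of edgeR 4.0.16 (TMM, Benjamini-Hochberg, threshold 0.05), after a test of the code on simulated data. Standard errors were the log2 fold change divided by the square root of F. DESeq2 1.42.0 and limma 3.58.1 served as alternatives, in R 4.3.3. Promoter windows are RefSeq's, gene positions and transcripts GENCODE's, both in GRCm38, searched with Python 3.11.15 and Biopython 1.88.

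Named genes were the 10 members, up to 4 called genes or else the gene with the smallest p of each other list, and the 6 genes most like the members over pools, of which 1 is not reported here. The members, lists and tests were chosen with earlier results of these data known. Hsp90b1, Hspa5, Jun, Dusp1, Nr4a1 and Ier3 were named after their values were seen.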

Additional observations from a re-analysis of the deposited data

How the results depend on the processing

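Of the 2 members called higher, the alternatives kept 2 with DESeq2 size factors, DESeq2, robust dispersion and limma-voom over pools. They kept 1 with upper quartile factors, no count filter, a minimum count of 5, technical replicates 2 and 3 alone and the mouse number as a replicate block, which was Hspa8 each time. None was left (0) without the 9 pools with 10 or more counts of pDC, macrophage and T cell markers, where 6 members and 1131 genes were tested. Leaving out 1 mouse gave 0 to 2 members, with 0 without Control mouse 2 and without Ptgs1/Ptgs2 KO mouse 1 or 4. No alternative called a member lower.

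The number of all genes called higher (56) was 110 with no count filter, 18 without the 9 pools, 32 from technical replicates 2 and 3 alone and 31 to 67 without 1 mouse. The number called lower (47) was 84 with no count filter, 79 with limma-voom over pools, 28 with the replicate block, 6 without the 9 pools, 19 from technical replicates 2 and 3 alone and 23 to 45 without 1 mouse. Hspa1b turned to −0.080 without the 9 pools, and was 1.38 with limma-voom over pools and 1.56 from technical replicates 2 and 3 alone. Among the 9 pools was Ptgs1/Ptgs2 KO mouse 3 pool 3, with 34 Hspa1b counts, while Control mouse 2 pool 1, with 20, was kept. Hspd1 turned to −0.084 from technical replicates 2 and 3 alone and ran from −0.18 (without Ptgs1/Ptgs2 KO mouse 3) to 0.33 when 1 mouse was left out. The cause of these changes was not tested. Fits without the 9 pools, without 1 mouse or from technical replicates 2 and 3 alone rest on fewer counts. Those with limma-voom, with no count filter or with the replicate block used all libraries.

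Mouse numbers recur in both groups, and whether they mark pairs is not known. The main test treated the mice as unpaired. Between mice of the same number, deviations from group means had correlations of −0.0893 to 0.10003, and 1 of 4 numbers correlated best with its own counterpart. With 4 numbers, these values cannot show whether mice of the same number shared a day or a batch. Depth limits Hsph1, Dnajb1, Hspa1a, Hspa1b and Hspd1, each with fewer than 100 counts per group.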
